A study of Homo sapiens with 4 samples.

Results

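The 10 genes described here encode major cytosolic and mitochondrial heat shock proteins of human cells, and they were picked by symbol: HSP90AA1, HSP90AB1, HSPA8, HSPA1A, HSPA1B, HSPB1, HSPD1, HSPE1, DNAJA1 and DNAJB1. All 10 were found among the 62443 genes of the table. RNA was sequenced from HGC-27, an established human gastric cancer cell line, in 2 libraries of cells given GLUP peptide at 10 μg/ml (GLUP) and 2 libraries of control cells (Con). GLUP is a synthetic peptide built to drive the transcription factor TEAD4 into repressive condensates, and the comparison asks which transcripts change in cells that take it up. The control is recorded as untreated in the sample labels and as the peptide's storage buffer in the study's methods. The exposure is given as 12 h in the study's results and as 48 h in its methods, so the time is uncertain. Both groups are the same cell line, with no genetic change recorded, and nothing ties a library to a culture beyond the study's mention of biological replicates, so the spread given here is that between 2 libraries.

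Heat shock proteins are chaperones. HSP70 and its J-protein partners bind unfolded stretches of client proteins, HSP90 takes over clients that are nearly folded, small heat shock proteins hold aggregating proteins in reserve, and the HSP60 and HSP10 ring folds proteins imported into the mitochondrion. Some of these genes are run at a low level and are switched on by heat, proteasome block or other protein damage through heat shock factor 1 (HSF1), whereas others are transcribed at a high level in every growing cell. By that textbook division, HSPA1A, HSPA1B, DNAJB1, HSPB1 and HSP90AA1 were taken as the 5 heat-inducible members and HSPA8, HSP90AB1, DNAJA1, HSPD1 and HSPE1 as the 5 constitutive members. The division is one of degree, since several of the constitutive genes also respond to heat. Nor were all the heat-inducible members at a low level here: HSP90AA1 and HSPB1 had means of 736 and 274 FPKM in Con.

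HSF1 binds heat shock elements, which are inverted repeats of GAA. The windows from 250 bases before to 50 bases after each start in RefSeq (GRCh38.p14) were searched on both strands for the 3-unit element GAANNTTCNNGAA, whose reverse complement is TTCNNGAANNTTC, and for its overlapping 2-unit parts GAANNTTC and TTCNNGAA, each its own reverse complement. All 10 members had a window, and they had 16 in all. The 3-unit letters were in a window of 5 members, HSP90AA1, HSPA8, HSP90AB1, HSPD1 and DNAJA1, and in 0.608% of the 27305 genes with a window (0.490% of 35116 windows). Of those 5, only HSP90AA1 belongs to the heat-inducible set. HSPA1A, HSPA1B, DNAJB1 and HSPB1 had 2-unit matches alone, which 6.77% of windows hold as GAANNTTC and 7.74% as TTCNNGAA, and HSPE1 had no match in its window. A match is a description of these letters, and its absence says nothing of HSF1. Stretches are printed 5′ to 3′ on the gene's strand, with matched letters in capitals. The 250 bases before the start are shown for the inducible HSP90 gene, for the constitutive HSP70 gene and for HSPB1, the member with the lowest fold change, at chr14:102087045-102087294 (minus strand), chr11:123062137-123062386 (minus strand) and chr7:76302423-76302672 (plus strand).
HSP90AA1: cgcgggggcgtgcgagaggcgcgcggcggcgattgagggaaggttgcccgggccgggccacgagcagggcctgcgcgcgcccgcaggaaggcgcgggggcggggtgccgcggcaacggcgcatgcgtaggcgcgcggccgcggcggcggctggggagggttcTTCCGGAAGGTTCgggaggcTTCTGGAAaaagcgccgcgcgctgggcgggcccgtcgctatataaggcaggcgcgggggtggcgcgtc
HSPA8: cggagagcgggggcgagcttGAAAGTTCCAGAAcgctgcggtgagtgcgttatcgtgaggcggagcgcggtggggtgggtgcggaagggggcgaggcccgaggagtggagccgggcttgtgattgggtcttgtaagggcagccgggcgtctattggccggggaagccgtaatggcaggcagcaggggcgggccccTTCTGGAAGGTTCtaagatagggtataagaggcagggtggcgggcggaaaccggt
HSPB1: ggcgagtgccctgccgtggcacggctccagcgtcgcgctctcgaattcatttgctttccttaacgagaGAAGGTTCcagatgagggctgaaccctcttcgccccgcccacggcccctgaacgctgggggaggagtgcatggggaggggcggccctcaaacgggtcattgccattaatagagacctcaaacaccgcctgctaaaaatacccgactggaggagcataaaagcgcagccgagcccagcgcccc

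For the other members with a match before the start, 30 bases around a match are shown. They lie at chr6:31815426-31815455 (plus strand) for HSPA1A, chr6:31827622-31827651 (plus strand) for HSPA1B, chr19:14518448-14518477 (minus strand) for DNAJB1, chr6:44247821-44247850 (plus strand) for HSP90AB1, chr2:197500061-197500090 (minus strand) for HSPD1 and chr9:33025063-33025092 (plus strand) for DNAJA1.
HSPA1A: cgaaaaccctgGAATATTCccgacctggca
HSPA1B: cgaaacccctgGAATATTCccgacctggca
DNAJB1: gcgGAAGGTTCtggagggggctggcgggct
HSP90AB1: gctgagattgTTCTGGAAGCTTCtggattc
HSPD1: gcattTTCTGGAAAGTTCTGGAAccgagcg
DNAJA1: aaaagggctccaGAAGATTCcacgagcgcc
HSPA1A and HSPA1B carry the same 2-unit letters, and the 250 bases before their starts are identical in 235 of 251 aligned columns (93.6%). The DNAJA1 stretch holds a 2-unit match alone, and the 3-unit match of DNAJA1 lies at 3 to 15 bases from the start. Also not printed are a 3-unit match of HSP90AB1 (-165 to -153) and 2-unit matches of DNAJB1 (-47 to -40, and 1 to 8 in another window). The HSPD1 stretch holds overlapping 3-unit matches in an unbroken run. It lies before one of the 2 annotated HSPD1 starts. The other HSPD1 start, whose window holds no match, is the one next to HSPE1, from which HSPD1 and HSPE1 are transcribed away from each other with 105 bases between their starts. The printed HSPD1 stretch lies downstream of that start and not between these neighbouring starts.

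The deposited values are FPKM, fragment numbers corrected for transcript length and for library size, and their sums per library ran from 909735 to 949919. They hold no counts, and without a known sequencing depth no value carries a counting error. Con replicate 2 stood apart: over the 7588 genes tested, its log2(FPKM + 1) values correlated with the GLUP libraries at 0.873 and 0.886, against 0.952 and 0.957 for Con replicate 1, and results are therefore also given without it. The Con libraries correlated with each other at 0.933 and the GLUP libraries at 0.986. Con replicate 1 was thus closer to both GLUP libraries than to Con replicate 2. More genes were lower than higher in GLUP, with a median log2 fold change of -0.36 over all genes tested, and fold changes ran with GC content over genes (Spearman rho 0.577 across 7570 genes, which share the same 4 libraries). A GC trend was also present between the Con libraries, where replicate 2 minus replicate 1 had a Spearman rho of -0.424 with GC content. At an unadjusted p under 0.05, 483 genes were higher and 1926 lower in GLUP, and after each library was centred on its median the split was 1172 higher and 754 lower. Of the gastric epithelial markers, EPCAM was between 0 and 0.12 FPKM and CDH1 between 0 and 0.08 FPKM, whereas the mesenchymal filament gene VIM was between 293 and 387 FPKM. Of the other mesenchymal markers, ZEB1 was 7.05 and 19.2 FPKM in Con and 2.88 and 2.92 FPKM in GLUP (log2 fold change -1.71, and -1.05 without Con replicate 2), and CDH2 was between 0 and 0.05 FPKM. The epithelial markers split, with EPCAM and CDH1 lower in both GLUP libraries and the keratin genes KRT8, KRT18 and KRT19 higher. KRT8 was 1.05 and 1.49 FPKM in Con and 2.25 and 2.19 FPKM in GLUP. KRT18 was 0.957 and 1.00 FPKM in Con and 2.25 and 1.64 FPKM in GLUP. KRT19 was 0.764 and 1.05 FPKM in Con and 1.32 and 1.34 FPKM in GLUP. The summed FPKM of the 5 epithelial markers was 2.97 and 3.70 in Con and 5.87 and 5.18 in GLUP, and the part of these differences in the results was not tested. In bulk RNA, fewer cells making a transcript and less transcript per cell cannot be told apart.

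FPKM is per length, so the members were ranked. The ranking is not corrected for GC content, which ran from 36.9% (HSPE1) to 64.3% (HSPB1). The mean level over the 4 libraries was highest for HSPE1 (2600.2 FPKM) and then for HSP90AA1 (921 FPKM), HSP90AB1 (372 FPKM), HSPA8 (362 FPKM), HSPB1 (193 FPKM), HSPD1 (169 FPKM), DNAJA1 (79.3 FPKM), DNAJB1 (14.2 FPKM), HSPA1B (1.60 FPKM) and HSPA1A (0.610 FPKM). HSP90AB1 and HSPA8 overlapped in their range over the libraries, as did HSPB1 with HSPD1, with HSPA8 and with HSP90AB1, and HSPA1A with HSPA1B. HSPE1 and HSP90AA1 overlapped neither each other nor any other member. HSPE1 ranked between 33 and 82 and HSP90AA1 between 121 and 200 among all genes of a library, whereas HSPA1B ranked between 4495 and 9599. The inducible HSP70 genes lay between 0.129 and 2.35 FPKM over the libraries, beside 290.1 to 401 FPKM for HSPA8.

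**Figure D1:**
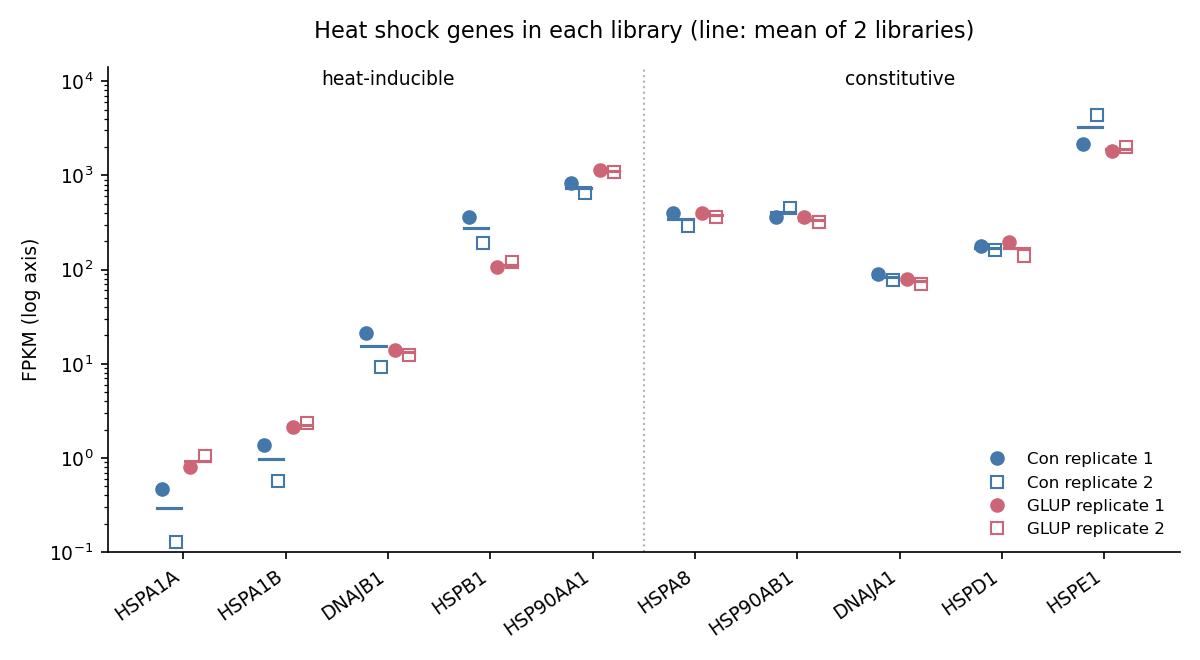
FPKM of the 10 members on a log axis in each of the 4 libraries, with filled circles for replicate 1, open squares for replicate 2, and a line at the mean of 2 libraries. HSPA1A, HSPA1B and HSP90AA1 lie higher in both GLUP libraries than in both Con libraries, and HSPB1, HSP90AB1 and HSPE1 lie lower.

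With GLUP, the inducible HSP90 gene and both inducible HSP70 genes lay above control in both libraries, HSPB1 lay well below control, and most constitutive members stayed within or close to the control range. None of these differences passed the test. Of the 10 members, 9 reached a mean of 1 FPKM over the libraries and were tested with limma on log2(FPKM + 1), with Benjamini-Hochberg adjustment over all 7588 genes. HSPA1A, the remaining member, stayed under this level at a mean of 0.610 FPKM. No member had an adjusted p under 0.05, where 2 of 7588 genes (0.0264%) did. At an unadjusted p under 0.05, 1 member was higher (HSPA1B) and 1 was lower (HSPB1) in GLUP, where 6.37% of all genes tested were higher and 25.4% lower (31.7% in either direction). Both GLUP libraries lay above both Con libraries for 2 of the 9 tested members (17.5% of all genes tested) and below for 3 of 9 (49.7% of all genes tested). With each library centred on its median, 5 of 9 lay above and 1 of 9 below, beside 2484 and 2260 of the 7588 genes. These shares are over 9 genes and are given beside the background as a description.

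The cytosolic HSP90 genes encode near-identical chaperones of kinases, steroid receptors and other signalling proteins, with HSP90AA1 as the inducible and HSP90AB1 as the constitutive form. HSP90AA1 was 825 and 648 FPKM in Con and 1136 and 1076 FPKM in GLUP. Both GLUP libraries were above both Con libraries, and the GLUP libraries were the closer pair. The mean level was 736 ± 125 FPKM in Con and 1106 ± 42.7 FPKM in GLUP (SD, n = 2), a ratio of 1.5. On the log2(FPKM + 1) scale the difference was 0.60 (SE 0.29), with a limma adjusted p of 0.209. HSP90AB1 was 362 and 448 FPKM in Con and 359.9 and 318 FPKM in GLUP. Its GLUP libraries were both lower, although GLUP replicate 1 and Con replicate 1 differed little, and the log2 fold change was -0.25 (SE 0.31, limma adjusted p 0.581). With each library centred on its median, the log2 fold change was 0.94 for HSP90AA1 and 0.09 for HSP90AB1. HSP90AA1 shares part of its locus with WDR20 on the opposite strand, which was between 0.47 and 1.89 FPKM and thus far below it. Named pseudogene copies of HSP90AA1 summed to at most 0.854% of it in any library, and those of HSP90AB1 to at most 0.521%.

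The ratio of HSP90AA1 to HSP90AB1 within a library does not depend on the scaling of that library. It was 2.28 and 1.44 in Con and 3.16 and 3.38 in GLUP, so that the inducible form outweighed the constitutive one in every library and did so most in GLUP. The ratio was 1.80 times as high in GLUP. An exact permutation test over the 4 libraries, two-sided, gave p = 0.33, which is the smallest p that 2 libraries against 2 allow (0.667 adjusted over the 4 ratios computed). Leaving out each library in turn gave log2 differences between 0.52 and 1.18, against 0.85 with all 4 libraries.

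The HSP70 genes of the cytosol are HSPA8, the constitutive chaperone of folding and clathrin uncoating, and the heat-inducible neighbours HSPA1A and HSPA1B, which encode almost the same protein. HSPA8 was 401 and 290.1 FPKM in Con and 396 and 362 FPKM in GLUP. These values overlapped between the groups, with a log2 fold change of 0.15 (SE 0.33, limma adjusted p 0.768). HSPA1A was 0.466 and 0.129 FPKM in Con and 0.798 and 1.05 FPKM in GLUP. HSPA1B was 1.39 and 0.564 FPKM in Con and 2.11 and 2.35 FPKM in GLUP. Both genes were higher in both GLUP libraries, but Con replicate 1 was also 3.60 times (HSPA1A) and 2.46 times (HSPA1B) as high as Con replicate 2. HSPA1B differed by 0.74 on the log2(FPKM + 1) scale (SE 0.29, limma adjusted p 0.152), and without Con replicate 2 by 0.44. HSPA1A differed by 0.58 on that scale and was tested only when all genes above 0 were kept, with a limma adjusted p of 0.395. At these levels the added 1 FPKM shrinks the fold change, and HSPA1B gave 1.23 with a pseudocount of 0.1.

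Reads from HSPA1A and HSPA1B can be assigned to either gene, so the split between them is uncertain and their sum is the safer value. How reads that match both genes were handled is not given. If such reads were dropped, the sum is also too low. The sum was 1.85 and 0.694 FPKM in Con and 2.91 and 3.40 FPKM in GLUP. HSPA8 exceeded this sum in every library, 217 and 418 times in Con and 136 and 106 times in GLUP. The ratio of the sum to HSPA8 was 2.50 times as high in GLUP as in Con, with both GLUP libraries above both Con libraries (exact permutation test, two-sided, p = 0.33, the smallest possible, and 0.667 adjusted over the 4 ratios). In the values as deposited, the inducible HSP70 transcripts remained a very small part of the cytosolic HSP70 transcripts. HSPA8 also hosts small nucleolar RNA genes on its own strand, of which SNORD14E was 4.11 and 25.7 FPKM in Con and 4.23 and 2.63 FPKM in GLUP.

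J-proteins hand clients to HSP70 and start its ATP cycle. DNAJB1, the heat-inducible partner, was 21.3 and 9.27 FPKM in Con and 14.1 and 12.3 FPKM in GLUP. Both GLUP libraries lay between the Con libraries, and the log2 fold change was -0.09 (SE 0.45, limma adjusted p 0.896). DNAJA1, the more abundant constitutive J-protein gene, was 89.3 and 78.4 FPKM in Con and 79.0 and 70.7 FPKM in GLUP, which also overlapped (log2 fold change -0.16, SE 0.32, limma adjusted p 0.740). The ratio of DNAJB1 to DNAJA1 was 0.238 and 0.118 in Con and 0.179 and 0.174 in GLUP, with an exact two-sided permutation p of 1. DNAJB1 showed no shift beyond the Con spread, but its direction turned with the Con library used: the log2 fold change was 0.47 without Con replicate 1 and -0.65 without Con replicate 2. DNAJB1 overlaps TECR on the opposite strand, and TECR was 124 and 16.2 FPKM in Con and 357 and 197 FPKM in GLUP. Whether the counting used strand is not given in the sources used here, so reads of the shared stretch cannot be told apart.

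HSPB1 encodes HSP27, a small heat shock protein that holds unfolding proteins in large oligomers and binds actin. HSPB1 was 358 and 189.8 FPKM in Con and 107 and 119 FPKM in GLUP. Every GLUP value was below every Con value, although the Con libraries themselves differed 1.89 times. The mean level was 274 ± 119 FPKM in Con and 113 ± 8.89 FPKM in GLUP (SD, n = 2), a ratio of 0.412. The log2 fold change was -1.20 (SE 0.41), the largest in size of any tested member, with a limma adjusted p of 0.125. Without Con replicate 2 it was -1.66 and without Con replicate 1 -0.75. HSPB1 has the highest GC content of the members (64.3%), and genes of high GC content tended to be higher in GLUP, so removing the GC trend took its log2 fold change to -1.78. Named pseudogene copies summed to at most 0.901% of HSPB1 in any library.

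HSPD1 and HSPE1 encode the mitochondrial chaperonin HSP60 and its lid HSP10 from a shared divergent promoter. HSPD1 was 176 and 163 FPKM in Con and 196 and 141 FPKM in GLUP, and the GLUP values enclosed the Con values (log2 fold change -0.03, SE 0.34, limma adjusted p 0.959). HSPE1 was 2140.4 and 4409.9 FPKM in Con and 1831 and 2019.7 FPKM in GLUP. Con replicate 2 was far above the other libraries, whereas Con replicate 1 lay close to the GLUP libraries. The log2 fold change of HSPE1 was -0.68 (SE 0.39, limma adjusted p 0.267), and it was -0.15 without Con replicate 2 and -1.20 without Con replicate 1. The ratio of HSPD1 to HSPE1 was 0.0822 and 0.0370 in Con and 0.107 and 0.0697 in GLUP, which overlapped (exact two-sided permutation p = 0.667, 0.889 adjusted over the 4 ratios). HSPE1 has the lowest GC content (36.9%) of the members and its longest transcript is short (700 bases). Of 26 named pseudogene copies of HSPE1, 9 had a value above 0, and together they came to between 3.50% and 6.57% of HSPE1 in the libraries. For the 18 copies of HSPD1 this share was between 1.59% and 4.32%. The readthrough gene HSPE1-MOB4 was 11.7 FPKM in Con replicate 1 and listed at 0 in the other libraries. In the annotation used for overlaps, HSPD1 overlaps HSPE1, HSPE1-MOB4 and MOB4 on the opposite strand. As for DNAJB1, it is not given whether the counting used strand. Reads of a stretch shared by HSPD1 and HSPE1 therefore cannot be told apart.

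**Figure D2:**
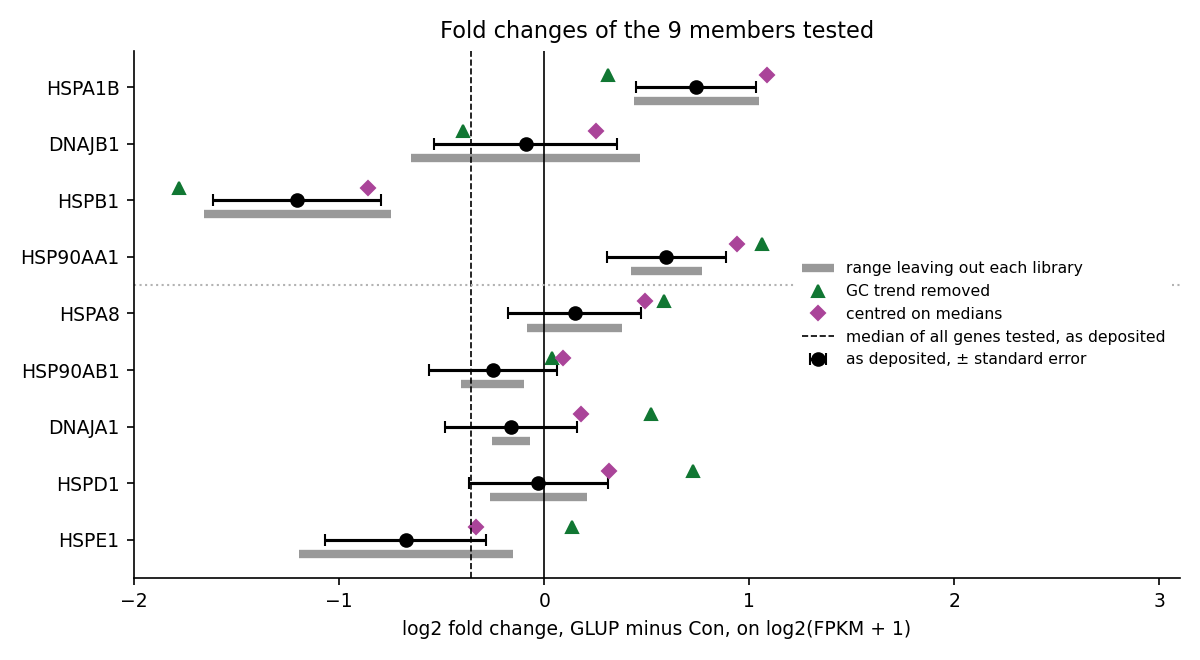
Log2 fold changes (GLUP minus Con, on log2(FPKM + 1)) of the 9 tested members, with heat-inducible genes above the dotted line. Black points with bars are the deposited values ± standard error, gray bands the range when each library is left out, and HSPA1B, HSP90AA1 and HSPB1 keep their side of 0 in all settings drawn, whereas HSP90AB1, DNAJA1 and HSPD1 change side with centring (diamonds) and with the GC trend removed (triangles).

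Set against each other, the heat-inducible and the constitutive members did not separate. The 4 tested heat-inducible members had a median log2 fold change of 0.25 and the 5 constitutive members one of -0.16, beside -0.36 over all genes tested. The heat-inducible median was -0.11 without Con replicate 2 and 0.62 without Con replicate 1, beside -0.34 over all genes tested in both. With centring it was 0.60, with quantile normalization 0.48, and with a mean of at least 5 FPKM -0.09. It was 0.58 with all genes above 0, which adds HSPA1A. The heat-inducible set was split, with HSPA1B and HSP90AA1 higher in both GLUP libraries, HSPB1 lower in both and DNAJB1 in between. In the constitutive set, HSP90AB1 and HSPE1 were lower in both GLUP libraries, while HSPA8, DNAJA1 and HSPD1 overlapped between the groups. The mean log2(FPKM + 1) of the 5 heat-inducible members minus that of the 5 constitutive members was -3.54 and -4.34 in Con and -3.72 and -3.52 in GLUP. The GLUP libraries were higher by 0.32 on average, with overlapping values and an exact two-sided permutation p of 0.667. The difference turned to -0.08 when Con replicate 2 was left out and was 0.71 without Con replicate 1.

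Base composition moved with this division. HSPA1A, HSPA1B, DNAJB1 and HSPB1 had a GC content between 56.3% and 64.3%, whereas HSP90AA1 (45.2%) and the constitutive members (36.9% to 48.1%) were lower, beside a median of 46.5% over all genes tested. With the GC trend of each library removed, the heat-inducible median was -0.04 and the constitutive median 0.52, so the order of the sets turned. HSP90AA1 was then at 1.06, HSPA1B at 0.31 and HSPB1 at -1.78. HSP90AA1 was higher, HSPA1B was higher and HSPB1 was lower in GLUP under every alternative that gave them a value. The other 6 tested members, DNAJB1, HSPA8, HSP90AB1, DNAJA1, HSPD1 and HSPE1, each changed sign under at least 1 alternative. Without Con replicate 1, the limma adjusted p was 0.0202 for HSP90AA1, 0.0131 for HSPA1B, 0.0226 for HSPB1 and 0.00752 for HSPE1, but 53.2% of all genes tested were then past the threshold. Without Con replicate 2, HSPB1 alone of the members was past it (limma adjusted p 0.0239), where 18.7% of all genes tested were. In both fits the spread comes from the GLUP libraries alone and the lone Con library is assumed to vary like them.

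**Figure D3:**
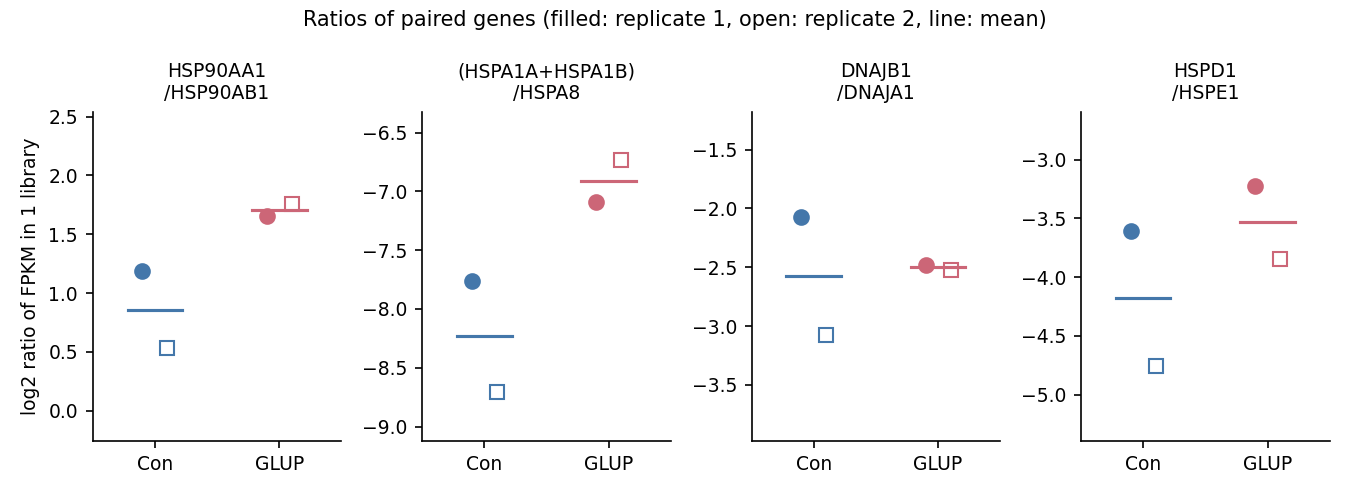
Log2 of the ratio of FPKM values within each library for the 4 gene pairs, with a line at the mean of 2 libraries and panels of equal span. HSP90AA1/HSP90AB1 and the summed HSPA1A and HSPA1B over HSPA8 lie higher in both GLUP libraries than in both Con libraries, while DNAJB1/DNAJA1 and HSPD1/HSPE1 overlap.

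The rest of the heat shock network was looked at with lists of textbook members. Higher and lower are used of genes whose GLUP libraries lay both above or both below both Con libraries, which held for 17.5% and 49.7% of all genes tested. Among heat shock factors and their binding protein, 2 of 5 genes were tested and both were lower in GLUP. HSF1 itself was between 0.05 and 0.43 FPKM in the 4 libraries, too low to be tested. HSBP1, which binds HSF1 and damps it, was 207 and 182 FPKM in Con and 95.0 and 93.3 FPKM in GLUP (log2 fold change -1.04, limma adjusted p 0.110). HSF2 was 1.78 and 1.64 FPKM in Con and 0.823 and 0.587 FPKM in GLUP. The median log2 fold change of HSBP1 and HSF2 was -0.85, but -0.24 with the GC trend removed. HSBP1 was then at -0.50 and HSF2 at 0.02.

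Of 15 further heat-inducible genes, 9 were tested, 5 were higher and 4 lower, and none passed the adjusted test. At an unadjusted p under 0.05, 2 of the 9 were higher and 4 lower, where 6.37% and 25.4% of all genes tested were. Their median log2 fold change was 0.52, with 0.54 after the GC trend was removed and 0.87 with centring. It was 0.047 without Con replicate 2, beside -0.34 over all genes tested. With all genes above 0 it was 0.039, beside -0.02 over all genes tested. HSPA6, which human cells make almost only under strong heat or proteotoxic stress, was 0.022 and 0 FPKM in Con and 0.039 and 0.048 FPKM in GLUP. The HSP70 cochaperone gene BAG3 was 0.275 and 0.283 FPKM in Con and 0.384 and 0.416 FPKM in GLUP. Both genes were slightly higher in GLUP and too low to be tested. HSPH1, the HSP110 exchange factor of HSP70, was 3.95 and 7.74 FPKM in Con and 2.13 and 1.20 FPKM in GLUP (log2 fold change -1.33, limma adjusted p 0.107). SERPINH1, the collagen chaperone HSP47, was 9.67 and 8.54 FPKM in Con and 23.6 and 20.2 FPKM in GLUP (1.18, limma adjusted p 0.101). With the GC trend removed, HSPH1 was at -0.60 and SERPINH1 at 0.86. HSPH1 and the HSP70 genes it serves, HSPA1A and HSPA1B, lay on opposite sides of control.

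As deposited, partners of the members were lower more often than higher, as were all genes. With each library centred on its median, 2484 of the 7588 genes tested were higher and 2260 lower. In that setting 2 HSP70 partners were higher and 6 lower, and 5 HSP90 cochaperones higher and 4 lower. Of the other J-proteins 2 were then higher and 6 lower, and of the mitochondrial genes 7 and 6. As deposited, of 12 HSP70 relatives and partners, 11 were tested, 2 were higher and 8 lower. Their median log2 fold change was -0.72, but -0.097 with the GC trend removed. The BAG-domain exchange factor gene BAG1 was 4.65 and 8.2 FPKM in Con and 2.54 and 2.06 FPKM in GLUP, and BAG4 had a log2 fold change of -1.41. HSPBP1, another exchange factor, lay the other way at 1.96 and 0.989 FPKM in Con and 3.74 and 3.80 FPKM in GLUP. The log2 fold change was -1.13 for BAG1 and 0.97 for HSPBP1. With the GC trend removed, BAG1 was at -0.88, BAG4 at -0.65 and HSPBP1 at 0.39. Of 15 HSP90 cochaperones, 13 were tested, 2 were higher, 7 lower and the others overlapped. Their median was -0.45, but -0.12 without Con replicate 1 and -0.032 with the GC trend removed. CDC37, which brings kinases to HSP90, was 35 and 10.8 FPKM in Con and 63.4 and 65.6 FPKM in GLUP (log2 fold change 1.67, limma adjusted p 0.125), the same side as HSP90AA1. Without Con replicate 2 the log2 fold change of CDC37 was 0.86, and with the GC trend removed it was 1.19. SUGT1, an HSP90 cochaperone of immune receptors and the kinetochore, was 42.4 and 55.4 FPKM in Con and 17.1 and 18.0 FPKM in GLUP. The log2 fold change was -1.41 for SUGT1 and -1.42 for TTC1. With the GC trend removed, SUGT1 was at -0.62 and TTC1 at -0.78.

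Of 25 other J-protein genes, 15 were tested, 1 was higher, 10 were lower and the others overlapped, with a median of -0.61, which was -0.29 with the GC trend removed and -0.97 without Con replicate 1. DNAJB6, which keeps polyglutamine proteins from aggregating, was 75.7 and 109 FPKM in Con and 22.1 and 20.9 FPKM in GLUP. Its log2 fold change of -2.03 (SE 0.35, limma adjusted p 0.1) was larger than that of any member. DNAJC12 and DNAJC24 had log2 fold changes of -1.4 and -1.35, and DNAJC12 had -0.85 without Con replicate 2. With the GC trend removed, DNAJB6 was at -2.25, DNAJC12 at -0.67 and DNAJC24 at -0.56. Of 6 other small heat shock protein genes, listed apart from HSPB8 and CRYAB, HSPB3 alone was tested. HSPB3 was 6.46 and 14.6 FPKM in Con and 5.20 and 2.10 FPKM in GLUP, the same side as HSPB1. HSPB8 and CRYAB, counted above as further heat-inducible genes, lay on opposite sides of control. HSPB8 was 2.16 and 1.08 FPKM in Con and 2.94 and 2.54 FPKM in GLUP (log2 fold change 0.54). CRYAB was 11.9 and 18.0 FPKM in Con and 8.53 and 6.79 FPKM in GLUP (log2 fold change -0.86). The log2 fold change of HSPB3 was -1.30, and -0.77 without Con replicate 2. Of 17 mitochondrial chaperones and proteases, 15 were tested, 4 were higher, 7 lower and the others overlapped. Their median was -0.32, but 0.19 with the GC trend removed and -0.12 without GLUP replicate 1. TRAP1, the mitochondrial HSP90, was 18.5 and 6.60 FPKM in Con and 35.3 and 30.3 FPKM in GLUP (log2 fold change 1.47), and the protease gene LONP1 had 1.12. Without Con replicate 2 these were 0.79 and 0.66, and with the GC trend removed 1.19 and 0.58. HSPA9, the mitochondrial HSP70, was 26.6 and 21.7 FPKM in Con and 19.5 and 15.7 FPKM in GLUP (log2 fold change -0.44). Its exchange factor gene GRPEL2 had -1.15. With the GC trend removed, HSPA9 turned to 0.19 and GRPEL2 was at -0.41. No gene of these lists had a limma adjusted p under 0.05. At an unadjusted p under 0.05 there were 2 lower among the heat shock factors, 1 higher and 4 lower in each of the HSP70 and HSP90 partner lists, 5 lower among the J-proteins, 1 lower among the small heat shock proteins, and 2 higher and 5 lower among the mitochondrial genes, where 6.37% of all genes tested were higher and 25.4% lower.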

How the data were processed

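RNA-seq libraries of HGC-27 cells, 2 Con and 2 GLUP, were used. The authors deposited FPKM values, one row per gene, and the submitters' processing notes name HISAT2, Cufflinks, RSEM and the build GRCh38 p10, without their roles, whereas the row identifiers have the form of GENCODE annotation lifted to GRCh37. No position of a gene is therefore given beyond the RefSeq windows. Of 62492 rows, 49 second copies of pseudoautosomal genes were summed into their gene, and 99.55% of the 62443 genes matched a GENCODE name without its version. Low FPKM values did not fall on steps of whole reads (0.615% of 1789 low genes shared the commonest ratio), so depth and counting error are unknown.

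The 7588 genes whose mean over the 4 libraries reached 1 FPKM were fitted with limma 3.58.1 in R 4.3.3 on log2(FPKM + 1), with variances moderated along the mean and p-values adjusted by Benjamini-Hochberg. Called means an adjusted p under 0.05. Ratios and scores were compared over libraries with scipy 1.17.1, by exact two-sided permutation, whose smallest p is 0.33. GC content is that of the longest transcript, and the GC correction subtracted a lowess curve (span 0.3) of each library's deviations. Pseudogenes and overlapping genes were found by name and position in the annotation. The steps were tested on simulated data. Alternatives were a pseudocount of 0.1, all genes above 0, a higher filter (5 FPKM), centring, quantile normalization, no trend, the GC correction, the replicate number as a block, and leaving out each library. The block with the GC correction was added after seeing the data. The members, lists and tests were chosen with earlier results of these data known. Besides the members, HSF1, HSPA6, HSPH1, BAG3, HSPA9 and TRAP1 are named whatever their values, with up to 3 genes a list of largest fold change among those not overlapping between groups. A gene that this rule names is not reported here. The genes that overlap a member, HSPB8 and CRYAB, and the markers EPCAM, CDH1, KRT8, KRT18, KRT19, VIM, ZEB1 and CDH2, are named outside that rule. Of the markers of immune, endothelial and stromal cells, CD3E was at 0, and the list's sum was between 27.1 and 45.3 FPKM, mostly DCN.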

Additional observations from a re-analysis of the deposited data

How the results depend on the processing

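Of 81 values of members under alternatives other than leaving out a library, 66 kept their direction and side of the threshold and 15 changed direction. No member was called in any of these. Over all genes, 2 were called as fitted, 1 with a pseudocount of 0.1, with centring or with quantile normalization, and 0 with limma on all genes above 0, on a mean of at least 5 FPKM, without the trend or with the GC correction, where 3744, 1174, 2378 and 1389 genes had an unadjusted p under 0.05. Leaving out each library gave between 4 and 4038 genes called, and between 0 and 4 members. The replicate numbers are not shown to pair the samples, with only 2 pairs and a correlation of 0.126 between the deviations of same-numbered libraries. With the replicate block 2 genes and 0 members were called, and with the replicate block and the GC correction 16 genes and 0 members. The heat-inducible minus constitutive difference was -0.18 within replicate number 1 and 0.81 within number 2, and between -0.077 and 0.71 leaving out each library.

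The constitutive median was 0.18 with centring, 0.087 with quantile normalization and 0.52 with the GC correction, with or without the replicate block. DNAJB1 turned to 0.25 with centring and 0.30 with quantile normalization, and ran between -0.65 and 0.47 leaving out each library, as HSPA8 did between -0.085 and 0.38 and HSPD1 between -0.27 and 0.21. HSP90AB1 was 0.092 with centring and 0.037 with the GC correction. DNAJA1 was 0.18, 0.087 and 0.52 with centring, quantile normalization and the GC correction, HSPD1 0.31, 0.13 and 0.73, and HSPE1 0.14 with the GC correction. The cause of these changes was not tested, beyond the shift in all genes that centring removes. With 2 libraries a group of unknown depth, differences of the size seen here did not pass the adjusted test.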
